A study of Mus musculus with 6 samples.

Results

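Dbh, Drd2, Ret and Efnb3 are 4 genes of catecholamine and neural signalling, and each was far lower in the right ventricle (RV) of newborn mice after pulmonary artery banding (PAB) than after a sham operation. They were picked by name from a deposited table of 617 genes because of their difference between these same libraries, so their PAB against sham values are given as a description and with no test. RV tissue was compared in 3 sham and 3 PAB libraries from wild-type mice of strain C57/BL6J, operated on at postnatal day 1 and collected at postnatal day 7. In PAB a thread narrows the pulmonary artery so that the RV works against a raised pressure, and sham mice had the operation but no band. All mice were anesthetized by ice cooling, pups of either sex were used, and the sources used here do not say whether a library came from a single RV.

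Noradrenaline, the transmitter of sympathetic nerves, is made from dopamine by dopamine beta-hydroxylase, the product of Dbh, in nerve endings and in chromaffin cells. In the heart, noradrenaline acts on adrenergic receptors of cardiomyocytes and raises the rate and force of contraction, and the sympathetic nerves of rodents are still growing into the heart around birth. Drd2 encodes the dopamine D2 receptor, which lowers cAMP through inhibitory G proteins. Ret encodes the receptor tyrosine kinase that, together with a GPI-anchored co-receptor of the GFRα family, receives GDNF and its relatives and is needed for the development of autonomic and enteric neurons. Efnb3 encodes ephrin-B3, a membrane-bound ligand of Eph receptors known from axon guidance.

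The table gives each value as reads divided by 1 size factor per library, called normalized reads here. Within a library every value was a whole multiple, within 1e-06, of 1 step, and reads are given here with that step taken as 1 read. The size factors lay between 0.939 and 1.07. Among the listed genes the smallest ratio of group means was 1.00 on the log2 scale, so the table holds a selection of genes that differ between these libraries, and genes outside it were not analysed here. The last of the 617 rows breaks off before its end and has no gene name, so the table may be part of a longer list, and ranks, medians, shares and statements that a gene is or is not listed hold for these rows only. PAB replicate 1 stood apart from the other PAB libraries, with 1.76 times the listed normalized reads of PAB replicate 3, and it was the highest PAB library for 48.6% of the listed genes. Of 9 markers of ventricular cardiomyocytes only Pln, and of 7 markers of atrial cardiomyocytes only Nppa, was in the table, so the labelled tissue could not be checked against its markers.

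Among Dbh, Drd2, Ret and Efnb3, a sequence window around the start was available for Dbh and Drd2 only. The 300 bases around the starts of Dbh and Drd2 are shown, from 250 before to 50 after the start that RefSeq gives in GRCm38.p6. The Dbh window is chr2:27165257-27165556 and the Drd2 window is chr9:49340153-49340452, both on the plus strand. Capitals mark matches, on either strand, to the motifs searched:
Dbh: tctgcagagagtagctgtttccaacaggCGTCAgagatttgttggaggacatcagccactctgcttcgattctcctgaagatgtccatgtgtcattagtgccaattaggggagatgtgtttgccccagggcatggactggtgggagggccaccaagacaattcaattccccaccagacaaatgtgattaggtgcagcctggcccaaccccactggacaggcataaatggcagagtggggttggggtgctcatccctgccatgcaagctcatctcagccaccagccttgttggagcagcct
Drd2: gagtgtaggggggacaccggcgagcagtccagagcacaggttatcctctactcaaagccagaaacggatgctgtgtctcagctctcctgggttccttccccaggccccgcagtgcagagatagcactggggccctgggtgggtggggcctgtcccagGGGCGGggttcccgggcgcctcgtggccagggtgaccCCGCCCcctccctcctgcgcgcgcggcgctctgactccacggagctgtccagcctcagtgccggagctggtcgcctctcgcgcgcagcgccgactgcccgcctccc

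The 2 windows differed in make-up. That of Dbh held 54.0% G and C and 2 CG pairs. That of Drd2 held 70.3% G and C and 23 CG pairs, more G and C than 90.9% of the 32851 windows in the table. The motifs searched were the cAMP response element TGACGTCA and its shorter core TGACG, the GATA core AGATAA, the paired-like homeodomain core TAATTA, the E-boxes CAGCTG and CACGTG, the GC box GGGCGG and the TATA box TATAAA. A full cAMP response element also holds the core. Dbh had 1 match, to the core TGACG on the minus strand from 222 to 218 bases before the start, a motif present in 20.8% of all windows. The Dbh gene of the deposited table begins at 27165233, before this window, so the match lies inside the gene as the table has it. Drd2 had 2 matches, both to the GC box, which 35.7% of all windows hold. No motif was matched in both windows. The other 6 motifs occurred in 1.79% to 16.3% of all windows and in neither of these. The table has no window for Ret or Efnb3.

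Dbh, the noradrenaline-forming enzyme (ENSMUSG00000000889), lies on the plus strand of chromosome 2 from 27165233 to 27183200 in GRCm38. It had 122.0, 150.6 and 99.6 normalized reads in sham replicates 1, 2 and 3, and 8.52, 5.95 and 13.9 in PAB replicates 1, 2 and 3. The groups did not overlap, and the lowest sham library held 7.16 times the normalized reads of the highest PAB library. The means were 124.1 ± 25.5 (SD, n = 3) in sham and 9.46 ± 4.06 (SD, n = 3) in PAB, which was 7.62% of the sham mean. On the log2(normalized reads + 1) scale, which understates the change of genes with few reads, the limma log2 fold change was -3.63 with a standard error of 0.39. The PAB values rest on 8, 6 and 14 reads. Their sum of 28 has an exact Poisson 95% interval of 18.6 to 40.5, which covers counting error only.

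Drd2, the dopamine D2 receptor (ENSMUSG00000032259), lies on the plus strand of chromosome 9 from 49340627 to 49408177 in GRCm38, a start that is downstream of the RefSeq window shown above. It had 92.7, 163.7 and 87.0 normalized reads in sham replicates 1, 2 and 3 and 5.33, 1.98 and 14.9 in PAB replicates 1, 2 and 3. Sham replicate 2 and PAB replicate 3 were the highest of their groups, as they were for Dbh, and again every PAB library was below every sham library. The sham mean was 114.5 ± 42.7 (SD, n = 3) and the PAB mean 7.40 ± 6.70 (SD, n = 3), or 6.47% of sham. The log2 fold change was -4.05 with a standard error of 0.58. This was the largest decrease of the 4 genes and the one with the widest error, and it differed from that of Dbh by less than this standard error. The PAB libraries held 5, 2 and 15 reads of Drd2, and their SD of 6.70 compares with 2.72 for counting error alone at that mean. Without PAB replicate 2 the log2 fold change was -3.47, and without PAB replicate 3 it was -4.67.

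Ret, the receptor kinase of the GDNF family (ENSMUSG00000030110), lies on the minus strand of chromosome 6 from 118151745 to 118197718. Its normalized reads were 149.4, 173.0 and 161.5 in sham replicates 1, 2 and 3 and 10.7, 20.8 and 19.9 in PAB replicates 1, 2 and 3. The sham libraries were close together, with an SD of 11.8 around a mean of 161.3 (n = 3) where counting error alone gives 12.7, and PAB replicate 1 was the low one of its group. The PAB mean was 17.1 ± 5.62 (SD, n = 3), or 10.6% of sham. The groups did not overlap, and the log2 fold change was -3.22 with a standard error of 0.34. The PAB libraries held 51 reads in all, with an exact Poisson 95% interval of 38.0 to 67.1.

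Efnb3, ephrin-B3 (ENSMUSG00000003934), lies on the minus strand of chromosome 11 from 69554092 to 69560205. It was the most abundant of the 4 genes, with 1092, 1077 and 1398 normalized reads in sham replicates 1, 2 and 3 and 243.9, 233.1 and 286.1 in PAB replicates 1, 2 and 3. Replicate 3 was highest in both groups, and the groups did not overlap. The means were 1189 ± 181 (SD, n = 3) in sham and 254.4 ± 28.0 (SD, n = 3) in PAB, which was 21.4% of sham. The log2 fold change was -2.22 with a standard error of 0.23, the smallest decrease of the 4 and the one with the narrowest error.

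**Figure D1:**
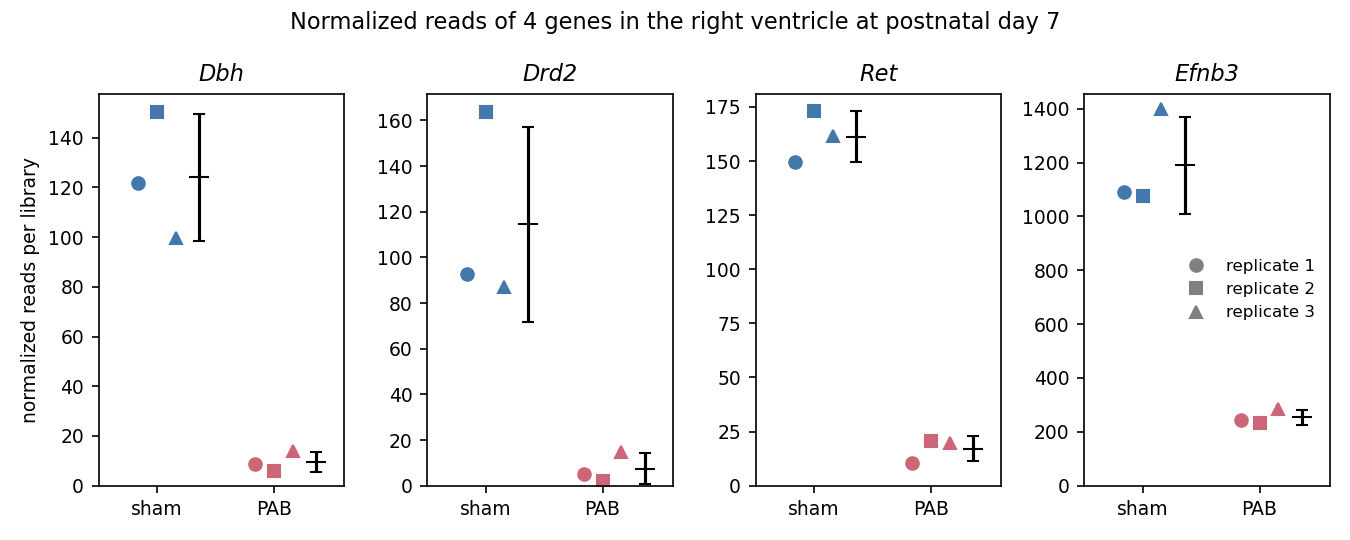
Normalized reads (y axis, from 0, a scale of its own for each gene) of Dbh, Drd2, Ret and Efnb3 in the 3 sham libraries (blue) and the 3 PAB libraries (red), with the marker shape giving the replicate number and the black bar the mean ± SD. For each gene every PAB library lies below every sham library, with PAB means of 9.46, 7.40, 17.1 and 254.4 normalized reads.

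The groups did not overlap for any of the 4 genes. Of the 617 listed genes, 52.5% were lower in PAB with no overlap between groups, and 97.1% had no overlap in one direction or the other. In limma, at an adjusted p under 0.05, 53.0% of the listed genes were lower and 47.0% were higher. Because the table and the 4 genes were both selected on this contrast, nothing is read from these counts. By log2 fold change, Drd2 ranked 5, Dbh 7, Ret 14 and Efnb3 61 among the 327 lowered genes, whose median was -1.45. In bulk tissue, fewer cells that hold a transcript and less of the transcript per cell cannot be told apart, and this holds for every value here.

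Exons of none of the 4 genes overlap those of another gene in the GENCODE M21 annotation, and no stretch of at least 100 bases at 95% identity or more was shared with the transcripts of another gene.

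Levels of different genes were compared as normalized reads per kilobase of the gene length in the table. In sham, Efnb3 was highest at 373.6 ± 56.9 (SD, n = 3) normalized reads per kilobase, followed by Dbh at 46.1 ± 9.48 and Drd2 at 44.9 ± 16.8, with Ret lowest at 23.9 ± 1.74. Dbh and Drd2 overlapped between libraries, at 37.0 to 55.9 and 34.2 to 64.3, and could not be put in order, whereas Efnb3 lay above and Ret below them in every sham library. In PAB the order of the means was the same, but only Efnb3 stood clear. It had 79.9 ± 8.81 (SD, n = 3) normalized reads per kilobase, against 3.51 ± 1.51 for Dbh, 2.91 ± 2.63 for Drd2 and 2.53 ± 0.83 for Ret, and these 3 overlapped. Among the 616 listed genes with a length, Dbh went from above 57.8% of them in sham to above 9.90% in PAB, Drd2 from 57.1% to 8.28%, and Ret from 42.7% to 6.82%. Efnb3 stayed among the more abundant listed genes, above 89.6% in sham and 70.3% in PAB.

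**Figure D2:**
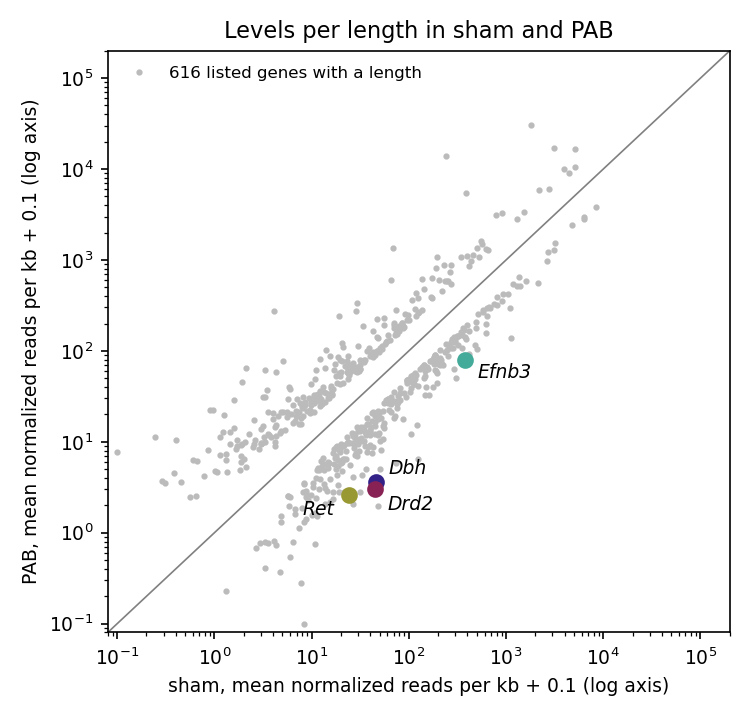
Mean normalized reads per kilobase of gene length in sham (x axis) and in PAB (y axis), both on log axes with 0.1 added, for 616 listed genes (grey) and for Dbh, Drd2, Ret and Efnb3 (coloured), with the line of equal levels. The empty band along the line reflects the selection of the listed genes, and Dbh, Drd2 and Ret lie at 2.53 to 3.51 normalized reads per kilobase in PAB.

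The deviation of each library from its group mean leaves the PAB against sham difference out, and so is not what the genes were chosen by. On the log2(normalized reads + 1) scale, Dbh deviated by -0.00388, 0.30 and -0.29 in sham replicates 1, 2 and 3 and by -0.06, -0.52 and 0.58 in PAB replicates 1, 2 and 3. Drd2 deviated in the same direction in each library, by -0.24, 0.57 and -0.33 in sham and by -0.08, -1.17 and 1.25 in PAB. The PAB deviations rest on 8, 6 and 14 reads of Dbh and on 5, 2 and 15 of Drd2. In PAB the SD of Dbh was 4.06 normalized reads, where counting error alone gives 3.08, and that of Drd2 was 6.70, where it gives 2.72. The part of counting error in these deviations was not tested. The Pearson correlation of these deviations was 0.98 over the 6 libraries, and Spearman's rho was 0.94. Without PAB replicates 2 and 3, which lay farthest from the median, r was 0.91. Since the deviations of a group sum to 0, the 6 points hold less information than 6 separate samples, and no p is given.

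Among 558 other listed genes with a mean of at least 20 normalized reads, Drd2 was the gene whose deviations were most like those of Dbh, and Dbh ranked 3 for Drd2. Dbh, Drd2 and Ret passed that limit through their sham libraries, with PAB means of 9.46, 7.40 and 17.1. The median correlation of the 558 genes with Dbh was -0.05, and 1.79% of them exceeded 0.9. Ret and Efnb3 did not share this pattern. Their correlations with Dbh were 0.08 and 0.17, with Drd2 0.06 and 0.34, and with each other 0.14. Without PAB replicates 2 and 3, the correlations of Efnb3 turned to -0.84 with Dbh and -0.59 with Drd2, those of Ret were 0.26 and 0.32, and without PAB replicates 1 and 2 Ret and Efnb3 were at 0.37, so no direction is read from these values. The deviations of Ret were dominated by PAB replicate 1, at -0.58, against 0.32 and 0.26 in PAB replicates 2 and 3. Those of Efnb3 stayed within 0.24 of its group means.

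**Figure D3:**
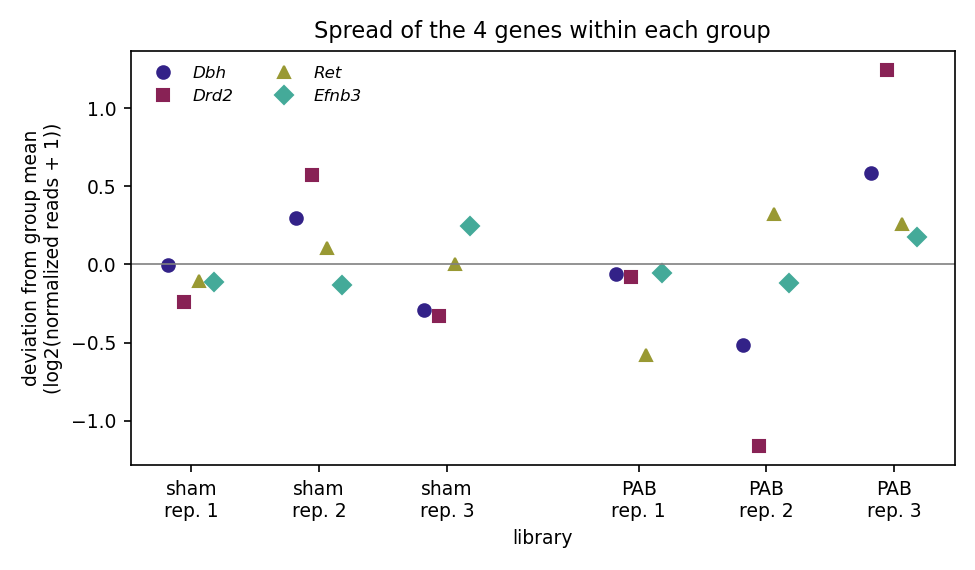
Deviation of each library from its group mean on the log2(normalized reads + 1) scale (y axis) in the 6 libraries (x axis), with 1 marker shape and colour per gene. Dbh and Drd2 are both high in sham replicate 2 and PAB replicate 3 and both low in sham replicate 3 and PAB replicate 2, while Ret is low in PAB replicate 1.

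The genes most like each member over all 6 libraries, with the group difference kept in, were lowered genes with correlations of 0.986 or more, which the selection of the table favours. For Dbh they were C1qa, Gm16793, Slc7a4, Trim7 and Rpp25 (r of 0.995 to 0.999). For Drd2 they were Itgb6, Gm26672, Slc7a4, Asb5 and Dbh (r of 0.986 to 0.993). For Ret they were Mpped2, Scara5, Lgr6, Cux2 and Sorcs2 (r of 0.995 to 0.998), and for Efnb3 they were Ubxn10, Scn4a, Lrrc4b, Scd4 and Aqp4 (r of 0.994 to 0.997). By deviations alone, the genes after Drd2 for Dbh were C1qa, Per3, Slc7a4 and Gm16793 (r of 0.947 to 0.973). Those for Drd2, beside Dbh, were Slc7a4, C1qa, Itgb6 and Ppp1r26 (r of 0.941 to 0.989). C1qa, a complement gene of macrophages, and Slc7a4, a solute carrier, thus stood near both. For Ret the genes were Dixdc1, Scn10a, Clec3b, Tmem35a and Fn3k (r of 0.965 to 0.994). For Efnb3 they were Lad1, Adgrd1, Gdf15, Fgf16 and Lrrc4b (r of 0.933 to 0.981), and of these Gdf15 was higher in PAB.

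Around the members in 7 gene lists of catecholamine, GDNF, ephrin, axon guidance and neurotransmitter signalling, 20 of 218 symbols were in the table. Besides the 4 members, 8 were lower and 8 were higher in PAB, and each had groups that did not overlap, as had 97.1% of all listed genes. The 8 lower genes come from the list of dopamine and adrenergic receptors and their regulators and from that of the GDNF family.

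Of 19 genes of catecholamine synthesis, storage, uptake and breakdown, Dbh alone was in the table. Th, Ddc and Slc18a2, which act before Dbh or load vesicles, and Slc6a2, which takes noradrenaline up again, were not analysed here. Of 15 markers of sympathetic neurons, Dbh was again the only 1 in the table, and of 10 markers of glia and Schwann cells and 16 transcription factors of sympathetic neurons there were 0. Dbh was likewise the only listed marker of 6 of chromaffin cells, and Ret the only one of 8 of cholinergic neurons. Whether the nerves as a whole moved with Dbh was not tested.

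The list of dopamine and adrenergic receptors and their regulators holds 39 symbols, where some genes stand under 2 names. Of these, 6 were in the table and all 6 were lower in PAB, where 53.0% of all listed genes were. The 5 beside Drd2 had a median log2 fold change of -1.56, and that of the 327 lowered genes was -1.45. Adra1b, the alpha-1B adrenergic receptor, had 539.1, 470.4 and 883.1 normalized reads in the sham libraries and 282.2, 171.6 and 177.8 in the PAB libraries. Its log2 fold change was -1.56, with a standard error of 0.31, beside -4.05 for Drd2. Kcnj3 and Kcnj5 encode the 2 subunits of the atrial potassium channel that inhibitory G proteins open. Kcnj3 had mean normalized reads of 196.3 ± 18.6 in the 3 sham and 45.7 ± 19.9 in the 3 PAB libraries (SD), and its log2 fold change was -2.15. Kcnj5 had 711.6 ± 61.3 and 309.3 ± 66.8 in the same order, and its log2 fold change was -1.22. Rgs2, which switches off G proteins of the Gq class, had a log2 fold change of -1.31. With median-ratio scaling Rgs2 was at -0.72 and Kcnj5 at -0.63, neither past the threshold, and the lower calls over all listed genes were 188 instead of 327. Ppp1r1b, the phosphatase inhibitor DARPP-32 of dopamine-responsive neurons, had a log2 fold change of -2.41, and its mean normalized reads were 54.1 ± 13.3 in sham and 9.55 ± 3.42 in PAB (SD, n = 3).

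Of 28 genes of the GDNF family and RET partners, 5 were in the table, and the 4 that were lower in PAB were Ret itself, 1 ligand and 2 co-receptors, beside 53.0% of all listed genes. Nrtn encodes neurturin, a ligand of the family, and had 1782, 1924 and 1219 normalized reads in sham and 494.2, 704.1 and 583.1 in PAB, and its log2 fold change was -1.45 (standard error 0.26). Gfra1, the co-receptor for GDNF, had 40.7, 41.1 and 49.3 in sham and 13.8, 16.9 and 13.9 in PAB, and its log2 fold change was -1.49 (standard error 0.36). Gfra4, the co-receptor for persephin, had 50.1, 72.9 and 62.9 in sham and 18.1, 10.9 and 18.9 in PAB, one of -1.91 (standard error 0.37). The ligand and both co-receptors were thus lower in the same libraries as the kinase, with smaller log2 fold changes than the -3.22 of Ret, and the differences between genes were not tested. Gdf15, a stress-induced hormone that acts on RET through the co-receptor GFRAL, was the exception, with 61.5, 54.2 and 107.0 normalized reads in sham and 162.9, 132.9 and 189.7 in PAB, a log2 fold change of 1.16.

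Of 27 genes of ephrins, Eph receptors and their adaptors, Efnb3 and Grip1 were in the table, and they differed in direction. Grip1 encodes a PDZ protein that binds the tail of B-class ephrins. It had 12.3, 19.6 and 14.7 normalized reads in sham and 88.4, 30.7 and 34.8 in PAB, with PAB replicate 1 far above the other libraries. Its log2 fold change of 1.52 came down to 1.05 without that library. The Eph receptors of the list, the partners of ephrin-B3, were not analysed here.

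The 5 listed genes of 40 in neurotrophin, axon guidance and innervation signalling were all higher in PAB, where 47.0% of all listed genes were. Bdnf, a neurotrophin, had 10.4, 18.7 and 25.2 normalized reads in sham and 128.9, 72.4 and 55.6 in PAB, a log2 fold change of 2.17. Nrg1, the neuregulin ligand of ErbB receptors, had 8.51, 29.0 and 30.4 in sham and 210.9, 111.1 and 49.7 in PAB, one of 2.36. Both were highest in PAB replicate 1, and without it their log2 fold changes were 1.84 and 1.86. Edn1 (endothelin-1) and Unc5b (a netrin receptor) had log2 fold changes of 1.15 and 1.16. These genes too were highest in PAB replicate 1, and without it they were at 0.98 and 0.91. Edn3 (endothelin-3) had at most 2.81 normalized reads in a sham library and 68.2, 42.6 and 16.9 in PAB. Syndig1, a synaptic membrane protein, was the only listed gene of 49 of cholinergic and other transmitter systems, with at most 1.05 normalized reads in a sham library and 44.7, 26.8 and 10.9 in PAB.

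**Figure D4:**
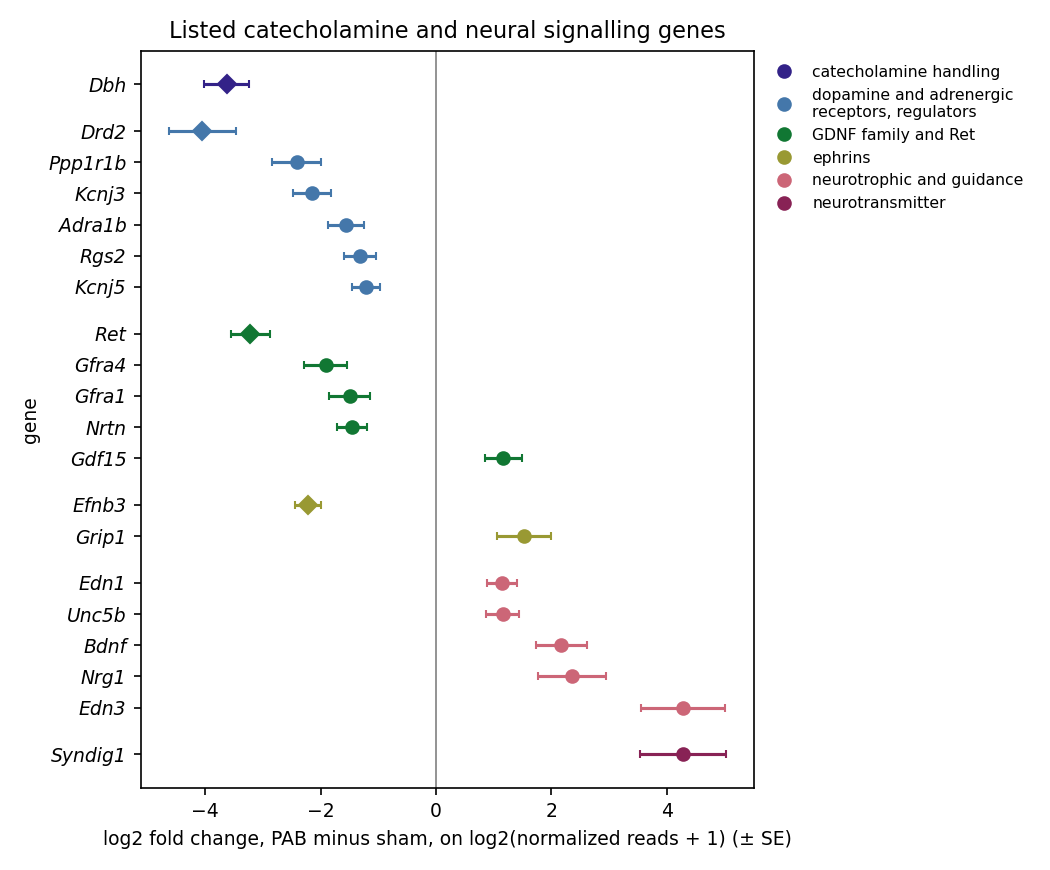
Limma log2 fold change of PAB minus sham on log2(normalized reads + 1) (x axis, bars ± standard error) for the 20 listed genes of the signalling lists (y axis), coloured by list, with the 4 members as diamonds. The members lie between -4.05 and -2.22, the other dopamine, adrenergic and GDNF family genes except Gdf15 between -2.41 and -1.22, and the neurotrophic and guidance genes above 0.

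The annotated exons of Kcnj3, Bdnf, Nrg1, Ppp1r1b, Gfra1, Syndig1 and Edn1 overlap those of another gene on the opposite strand, over 1621, 896, 482, 460, 416, 290 and 35 bases. Whether reads were counted by strand is not given in the sources used here, so reads of these genes and their antisense partners cannot be told apart. Gfra4 shares 80 exonic bases with Mir6973b on its own strand, and reads there cannot be told apart either.

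Other marker genes moved in the same libraries. The 3 listed of 8 genes of the conduction system, Hcn4, Tbx5 and Cacna1g, were lower in PAB, where 53.0% of all listed genes were. Their summed levels were 1226 to 1396 normalized reads in sham and 405.3 to 510.1 in PAB. Cacna1g made up most of these sums, with means of 1048 in sham and 358.1 in PAB. Of fibroblast markers 1 of 9 was listed, Dpt, with a log2 fold change of -1.20. Of macrophage markers 1 of 5 was listed, C1qa, at -1.12, and of ventricular cardiomyocyte markers 1 of 9, Pln, at -1.15. Kcnj5, at -1.22, lost its call under median-ratio scaling, and the calls of these markers under it are not given here. The 2 listed of 7 endothelial markers, Vwf and Flt1, were higher, where 47.0% of all listed genes were. Their summed normalized reads were 2828 to 3307 in sham and 4335 to 9153 in PAB. Cnn1, the 1 listed of 8 smooth muscle and pericyte markers, was also higher, at 105.7 to 122.0 in sham and 288.6 to 680.5 in PAB. Nppa, the atrial natriuretic peptide of the atrial list, had a log2 fold change of 5.60, at 191.9 to 238.3 normalized reads in sham and 4995 to 21964 in PAB. The part of these cell types in the values of the 4 genes was not tested. None of the 5 epicardial, 4 lymphocyte, 6 erythroid and 5 lung or thymus markers was in the table.

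The genome neighbours of the members that were in the table went different ways. Ttc12, 28.8 kb from Drd2 with 1 protein-coding gene between them, was lower in PAB, with mean normalized reads of 518.8 ± 9.88 in the sham and 198.4 ± 23.5 in the PAB libraries (SD, n = 3). Adamtsl2, 56.3 kb from Dbh, was higher, with 375.0 ± 37.8 and 1807 ± 1158 (SD, n = 3) and a log2 fold change of 2.05. Ybx2, 375.6 kb from Efnb3 with 34 protein-coding genes between, had a log2 fold change of -1.46. No listed gene lay within 500 kb of Ret.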

How the data were processed

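RNA of RV tissue was made into NEBNext Ultra libraries and sequenced on an Illumina instrument by the authors. Their processing notes name HISAT2 2.0.5, StringTie 1.3.3b, featureCounts 1.5.0-p3, GATK 3.7 and the build mm10. The deposited table calls its values FPKM, but they are a signal of another kind, reads divided by 1 size factor per library. The deposited log2 fold changes and p-values are the authors' own comparison, which they made with DESeq2, and were not used. Replicate means and gene length in bases were also deposited. The extraction text of the labels speaks of a rat, while the organism and gene IDs are those of the mouse. The members, lists and tests were chosen with earlier results of these data known.

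PAB and sham were compared over all 617 genes with limma 3.58.1 in R 4.3.3 (trend, two-sided, Benjamini-Hochberg) on log2(value + 1), mean at least 0.1, and the fit was tested on simulated data. No count test was run. Named genes were the members, all listed genes of the lists, and the 5 genes most like each member by each of the 2 correlations; genomic neighbours and the gene lists' markers were added for context. Coordinates follow the table, where 597 genes matched GENCODE M21 (GRCm38). Same-numbered sham and PAB libraries had deviations that correlated at -0.20 to -0.05 across the listed genes. With 3 libraries per group and selected genes this cannot exclude a pairing, and the main fit treated the libraries as unpaired. The p-values measure the spread between these 6 libraries, which may be technical. Python 3.11.15, scipy 1.17.1, matplotlib 3.10.9 and blastn 2.17.0 were used.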

Additional observations from a re-analysis of the deposited data

How the results depend on the processing

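The 4 genes, chosen on this contrast, were lower in PAB under all 14 alternatives, in 56 of 56 values, and the groups did not overlap in any of them. Of these alternatives only median-ratio scaling could have brought about an overlap, so no support is drawn from this. Median-ratio scaling, computed from the listed genes, by construction adds 0.594 (log2) to PAB minus sham. The log2 fold change of Dbh was then -3.07, that of Drd2 -3.51, that of Ret -2.64 and that of Efnb3 -1.62, the genes called lower went from 327 to 188, and higher genes made up 60.7% of the calls instead of 47.0%. Under that scaling Rgs2 and Kcnj5 were no longer called. No other of the 20 pathway genes lost its call under an alternative that kept it. Syndig1 fell below the minimum mean of 20 and was not fitted in that setting. With a pseudocount of 5, Dbh was at -3.18 and Drd2 at -3.35. Leaving out each library gave -3.92 to -3.37 for Dbh, -4.67 to -3.47 for Drd2, -3.38 to -2.92 for Ret and -2.30 to -2.09 for Efnb3. With the replicate block, 616 genes were called. The block could not change the log2 fold changes, because each replicate number is in both groups. The 2 planned tests on reads were not run. Values came out as whole multiples of 1 step, but 5 of the 6 libraries had too few low values for the criterion set for treating them as counts. Precision is limited by 3 libraries per group and, for Dbh, Drd2 and Ret in PAB, by 2 to 21 reads per library.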
